A study of Mus musculus with 31 samples.

Results

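The mouse microRNA miR-677 was followed through its 2 mature arms, mmu-miR-677-5p and mmu-miR-677-3p, in small RNA libraries of the hippocampus. They are 2 of the 1966 mature microRNAs in the deposited count tables, and both were counted in all 31 libraries. Both arms were selected on measured values: they were low in the knockout water libraries of the deposited genotype table and in exercised wild-type mice. Values of those contrasts are therefore given as descriptions, with no test.

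Right hippocampi of C57Bl/6 J mice were the source of the small RNA, and the mice were either wildtype (WT) or knockouts of 5-HTT (5-HTT KO), the transporter that returns serotonin to the nerve terminal. Mice had water (WT n = 7, KO n = 6), exercise for 4 weeks (WT n = 5, KO n = 5) or corticosterone, the main rodent stress hormone, for 4 weeks (WT n = 6, KO n = 2). For age, sex and the making of the knockout, nothing is stated in the labels. The deposited table that compares genotypes on water holds 3 of the 6 KO-water libraries (replicates 3, 4 and 6, here the tabled KO-water libraries), while replicates 1, 2 and 5 (the untabled ones) are in other tables. A further knockout column of that table belongs to KO-exercise replicate 4 by the labels and was counted as exercise here.

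MicroRNAs are short RNAs cut from hairpin precursors. Either arm of the hairpin can enter an Argonaute protein, where its seed, the bases near the 5′ end, pairs with target messenger RNAs. Box C/D small nucleolar RNAs (snoRNAs) are another class, usually released from introns; they carry a C box and a D box near their ends and guide ribose methylation of ribosomal RNA, and some of them also give microRNA-like fragments.

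The mature arms are shown because their lengths and positions bear on how they were counted; capitals mark the seed, bases 2 to 8.
mmu-miR-677-5p: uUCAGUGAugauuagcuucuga
mmu-miR-677-3p: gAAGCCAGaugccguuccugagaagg

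In RefSeq on GRCm38.p6 the 5p arm of 22 bases lies at chr10:128085291-128085312 and the 3p arm of 26 bases at chr10:128085335-128085360, both on the plus strand. The arms are 22 bases apart and span 70 bases from the first base of one to the last of the other. No other of the 1679 mature sequences searched in RefSeq had either seed, so miR-677 has no seed family among these. Of the 1966 counted microRNAs 1675 had a sequence, and the others were not searched. The hairpin gene, Mir677, covers chr10:128085286-128085363 (78 bases). In GENCODE M21 it lies in intron 4 (chr10:128085213-128085441, 229 bases) of the protein-coding transcript Atp5b-201, which has 10 exons. Atp5b encodes the beta subunit of mitochondrial ATP synthase. Host messenger RNA was not analysed here.

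The same stretch is also annotated as a snoRNA. GENCODE M21 places a snoRNA gene (ENSMUSG00000093245.1) at chr10:128085289-128085360, and 72 of the 78 hairpin bases overlap it. A second snoRNA of the same host gene, Snord59a (chr10:128084143-128084216), ends 1072 bases upstream. Both are printed below from GENCODE M21 (GRCm38, plus strand) because they look alike; capitals mark UGAUGA and CUGA, letters that occur in C and D boxes.
Mir677 snoRNA: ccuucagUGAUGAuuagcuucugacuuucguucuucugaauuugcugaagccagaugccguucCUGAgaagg
Snord59a: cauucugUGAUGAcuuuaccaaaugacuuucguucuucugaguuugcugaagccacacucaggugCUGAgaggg

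Over 74 alignment columns 58 bases were identical (78.4%), and the longest shared run was 18 bases. UGAUGA stood within the first 20 bases of 3 of 1005 mouse hairpins in the table (0.299%) and CUGA within the last 20 bases of 10.7%, read on the hairpin strand with no overlap between the motifs. Mir677 was the 1 hairpin with both (0.0995%). A match of letters is a description and shows no binding of snoRNA proteins. Overlap with a snoRNA or a small Cajal body RNA by at least 20 bases was found for 14 of the 1005 hairpins (1.39%), which give 22 counted mature microRNAs, the miR-677 arms among them.

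Library depth ranged from 1011285 to 4052174 counts. Neuron-enriched microRNAs, led by miR-124-3p, summed to between 343966 and 453871 CPM (counts scaled to library size, with TMM factors) in each library, so neuronal markers of the labelled tissue were abundant. Along the first principal component of the variation within groups (462 other microRNAs, 49.8% of that variance), the tabled KO-water libraries scored 7.61, 12.5 and 10.9 and the untabled ones -10.5, -10.4 and -10.1. The KO-water libraries thus fell into 2 separate sets, and each result that rests on them is given by set. The component also parted other groups: WT-exercise replicates 1 and 2 scored -8.82 and -12.4 and the other 3 between 5.06 and 11.0, while WT-corticosterone libraries ran from -11.1 to 6.24 and WT-water libraries from -0.64 to 0.74. The sample codes begin with G or H, a letter that the labels leave unexplained.

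The counts of the arms were almost the same number in each library. In WT-water replicate 1 the 5p arm had 323 counts and the 3p arm 322. In WT-water replicate 2 the counts were 592 and 591, and in KO-water replicate 4, the lowest library, 6 and 6. The arms were equal in 3 libraries, differed by 1 count in 13, by 2 or fewer in 26 of 31, and by 7 at most. Summed over 31 libraries there were 6044 counts of the 5p arm and 6074 of the 3p arm, and the ratio of 5p to 3p lay between 0.9375 and 1.0177.

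To set this against other hairpins, the squared difference between the arms was summed over libraries and divided by the sum of their counts. This index averages 1 where both arms have equal rates and are counted independently with Poisson error. Of 769 hairpins with both arm names in the tables, 328 had at least 200 counts over both arms. The index of miR-677 was 0.0142, the lowest of the 328, whose median was 154. Next came miR-3618 (0.0180, with 1787 and 1777 counts), in the microRNA-processing gene Dgcr8, and miR-7068 (0.0424, with 911 and 906 counts), in Cherp. These 3 hairpins lay below 0.05, and 5 of the 328 below 1. The arms are therefore read here as 1 measurement, not as 2 that support each other. Whether single reads that cover both arms were counted for each was not tested.

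**Figure D1:**
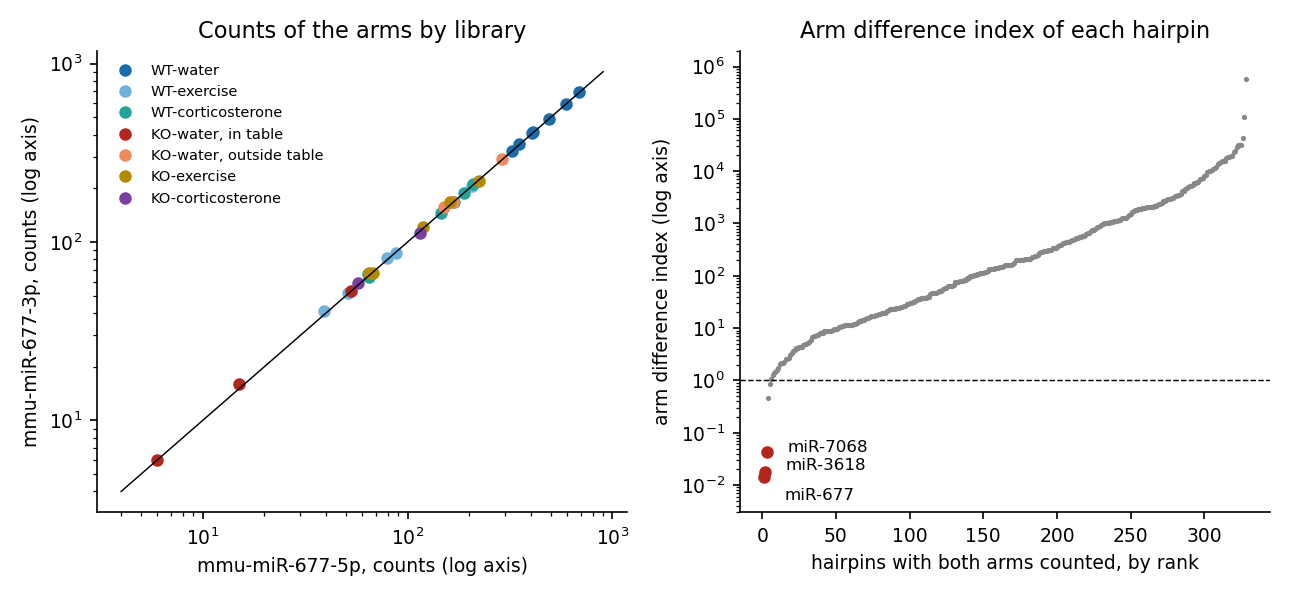
Left, counts of mmu-miR-677-3p against mmu-miR-677-5p on log axes, 1 point per library (31), coloured by group, with the line of equality: all points lie on or beside the line, from 6 to 690 counts. Right, the arm difference index (log axis) of 328 hairpins in rank order, with the dashed line at 1: miR-677, miR-3618 and miR-7068 lie apart at the bottom, below 0.05.

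The level of the pair spanned 86.9-fold over the series, from 4.55 CPM in KO-water replicate 4 to 395.4 CPM of the 5p arm in WT-water replicate 6. In bulk tissue, fewer cells of a type and less of the RNA per cell cannot be told apart. The 7 WT-water libraries had 81.2 CPM of the 5p arm at the lowest, 150.7 at the median and 395.4 at the highest (mean 182 ± 110, SD, n = 7). The 3p arm had 81.4, 151.3 and 397.7 CPM in the same order. The spread within wild-type mice on water was thus itself 4.87-fold.

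The 5 WT-exercise libraries had 124.0, 26.3, 28.6, 34.9 and 44.7 CPM of the 5p arm (51.7 ± 41.1, SD, n = 5), so replicate 1 stood apart from the other 4. The WT-corticosterone libraries had 29.4 CPM at the lowest, 76.9 at the median and 131.9 at the highest (77.4 ± 40.3, SD, n = 6). The KO-exercise libraries had 118.9, 107.7, 95.9, 39.5 and 21.7 CPM (76.7 ± 43.4, SD, n = 5): replicates 1 to 3, of letter G, were above replicates 4 and 5, of letter H. The KO-corticosterone libraries, both of letter H, had 25.4 and 65.0 CPM (45.2 ± 28.0, SD, n = 2).

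The tabled KO-water libraries had 28.8, 4.55 and 7.18 CPM of the 5p arm (13.5 ± 13.3, SD, n = 3). The untabled ones had 117.3, 86.8 and 49.6 CPM (84.6 ± 33.9, SD, n = 3), so the KO-water sets did not overlap and the tabled libraries held the lower values. Low values in the tabled libraries were a ground for choosing the arms. The share of other microRNAs that part these sets is not given here, so nothing is read from the separation. In order of the mean of the 5p arm, WT-water was highest, then untabled KO-water, WT-corticosterone, KO-exercise, WT-exercise, KO-corticosterone and tabled KO-water. The ranges of all neighbours in that order overlapped, and the order is a description.

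**Figure D2:**
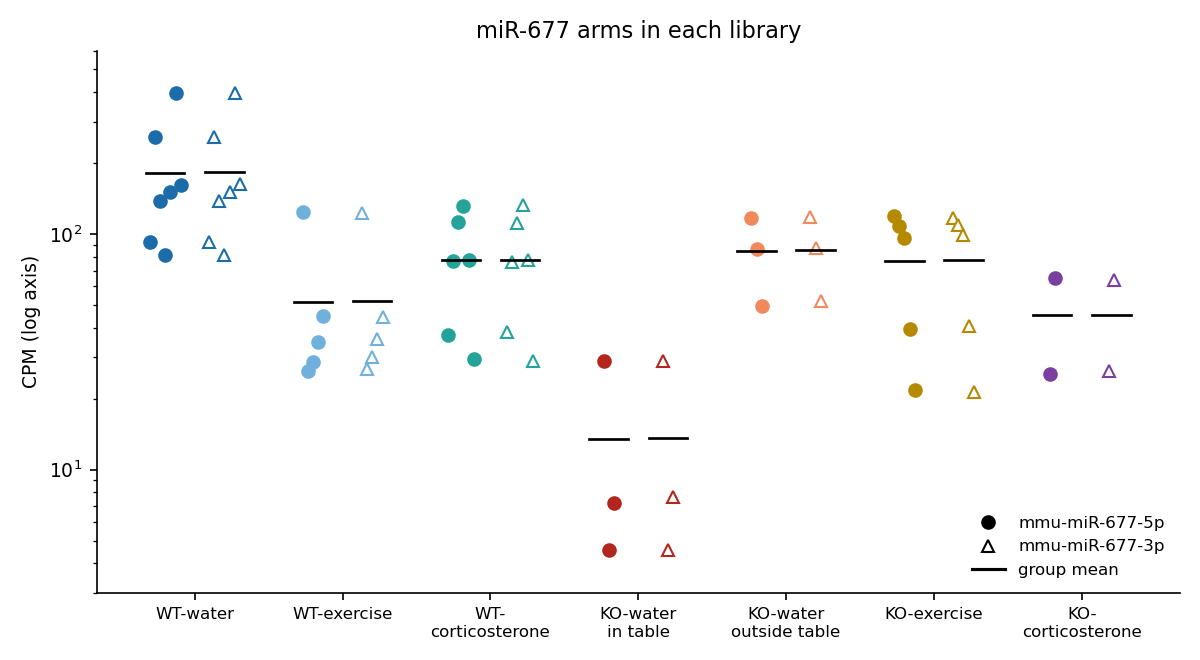
CPM (log axis) of mmu-miR-677-5p (filled circles) and mmu-miR-677-3p (open triangles) in each of 31 libraries by group, KO-water being split by membership of the deposited genotype table; black lines are group means. The tabled KO-water libraries, between 4.55 and 28.8 CPM, lie below all WT-water libraries, which start at 81.2 CPM.

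The contrasts that chose the arms give the size of the differences. Tabled KO-water against WT-water had a log2 fold change of -3.55 ± 0.73 (SE) for the 5p arm and -3.53 ± 0.73 for the 3p arm. All 3 tabled libraries lay below all 7 WT-water libraries; of 581 microRNAs in that fit, 29.4% had the same separation downwards, and nothing is read from it. Without KO-water replicate 3, the highest of the 3, the 5p value was -4.78; with the within-group component as a covariate it was -0.61 ± 2.46, since the component parts the same libraries. WT-exercise against WT-water had -1.77 ± 0.48 for the 5p arm and -1.77 ± 0.47 for the 3p arm, with 4 of 5 libraries below all WT-water libraries; the 5p value was -2.76 among letter H libraries and -1.18 among letter G libraries. KO-exercise against WT-exercise had 0.58 ± 0.53 and 0.59 ± 0.52; the ranges of those groups overlapped, and among letter H libraries the sign was reversed (-0.36 and -0.34).

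Other cell types' microRNAs moved beside these values, with all markers of each list counted and none at 0 in all libraries. Microglia and immune microRNAs (5 of 5) summed to between 7029 and 7892 CPM in tabled KO-water libraries, 2371 to 3167 CPM in untabled ones and 2304 to 3350 CPM in WT-water. Oligodendrocyte microRNAs (3 of 3) summed to between 1224 and 1764, 4112 and 5531, and 5113 and 6284 CPM in the same 3 sets. Vessel microRNAs (4 of 4) summed to between 23372 and 26489, 11284 and 15704, and 12838 and 18486 CPM. Red blood cell microRNAs (4 of 4) summed to between 533 and 664, 1208 and 1643, and 1187 and 2439 CPM. Members did not all move alike in tabled KO-water against WT-water (edgeR calls). Of the red blood cell members 2 of 4 were called higher and 2 lower, and of the oligodendrocyte members 1 of 3 higher and 2 lower. Of the immune members 3 of 5 and of the vessel members 2 of 4 were called higher, with 0 lower. Over all 581 microRNAs of that fit 192 were called higher and 162 lower, so nothing is read from these counts of members. The red blood cell sum was led by miR-451a and the oligodendrocyte sum by miR-338-3p. In WT-exercise, the immune sum lay between 2434 and 9948 CPM and the oligodendrocyte sum between 1303 and 6082 CPM. The part of these shifts in the level of miR-677 was not tested.

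Corticosterone in wild-type mice was a contrast that the choice did not use, although its WT-water libraries were used. The arms were chosen as low against those libraries, so the p-values of this contrast are not independent of the choice. Both arms fell, with log2 fold changes of -1.21 ± 0.40 (SE) for the 5p arm (edgeR quasi-likelihood test, Benjamini-Hochberg adjusted p = 0.0259) and -1.21 ± 0.40 for the 3p arm (adjusted p = 0.0258). All 6 treated libraries lay below the WT-water median of the 5p arm, and 4 of 6 below all 7 WT-water libraries. Calls were common in this contrast: 93 of 547 microRNAs (17.0%) fell, so a call downwards is not particular to miR-677. Of the 547 log2 fold changes, those of the arms were the 16th and 15th lowest, a rank that also rests on the WT-water libraries of the choice.

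The call rested on few libraries, and it was also lost with no filter on low counts (adjusted p = 0.114) and with the code letter as a covariate (0.0597). It was lost without WT-water replicate 2 (adjusted p = 0.0536 for the 5p arm) or replicate 6 (0.0647, log2 fold change -0.94), and without WT-corticosterone replicate 1 (0.0516) or replicate 6 (0.0619), edgeR quasi-likelihood throughout. Among letter G libraries the value was -0.74 (adjusted p = 0.153), and with 1 treated letter H library against 2 controls -3.18 (adjusted p = 5.11e-07); over all alternatives the adjusted p of the 5p arm ran from 5.11e-07 to 0.153. Over all microRNAs 136 of 547 were called higher and 93 lower in this contrast. Of the microglia and immune microRNAs 4 of 5 were called higher, with sums of 2482 to 8284 CPM against 2304 to 3350 CPM in WT-water. The oligodendrocyte sum was 1507 to 5505 CPM against 5113 to 6284 CPM, and 1 of 3 members fell. The red blood cell sum was 516 to 1168 CPM against 1187 to 2439 CPM, with no overlap, while 2 of 4 members were called higher and 1 lower. Of the vessel microRNAs 2 of 4 were called higher, and of the neuron microRNAs 3 of 6 higher and 1 lower. The part of these shifts in the fall of miR-677 was not tested.

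For knockout against wild type on water, the untabled KO-water libraries are knockout mice the choice did not use, although the 7 WT-water libraries they are set against are those of the contrasts that chose the arms. The arms had log2 fold changes of -1.12 ± 0.50 and -1.11 ± 0.49, which did not pass the test (edgeR quasi-likelihood, adjusted p = 0.877 for each; unadjusted p = 0.0456 and 0.0467). All 3 untabled libraries lay below the WT-water median, and 1 of 3 below all WT-water libraries. The arms, read as 1 measurement, were the 3rd and 4th lowest of 587 microRNAs by fold change. As the arms were chosen against the same WT-water libraries, nothing is read from that rank. No microRNA of the 587 was called lower or higher (0% lower): 24 had an unadjusted p below 0.05 in edgeR, and DESeq2 called 0 with 27 below 0.05. Among letter H libraries, 1 KO library against 2, the values were -2.52 and -2.46 (adjusted p = 0.000229 and 0.000242, against a range up to 0.998 over the other settings), and with the within-group component as a covariate they turned to 0.99 and 1.12 (SE of the 5p value 5.62).

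Within knockout mice the arms showed no call. KO-exercise against untabled KO-water gave -0.11 ± 0.49 for either arm (edgeR quasi-likelihood, adjusted p = 0.912), while 61 of 544 microRNAs (11.2%) were called lower. The ranges overlapped widely, and the sign was positive against all 6 KO-water libraries (0.72 and 0.71) and without KO-water replicate 1 (0.26 and 0.24). Whether the response to exercise differed between genotypes was not tested. KO-corticosterone against untabled KO-water gave -0.96 ± 0.50 and -0.98 ± 0.47 (adjusted p = 0.252 and 0.220), with 20 of 565 microRNAs (3.54%) called lower. Both treated libraries lay below the untabled KO-water median and 1 of 2 below all 3 libraries. With no filter on low counts both arms passed the test there (-1.01 and -1.03, adjusted p = 0.0466 and 0.0391), against a range of 0.00948 to 0.950 for the 5p arm over all alternatives.

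KO-corticosterone against WT-corticosterone gave -0.83 ± 0.61 and -0.84 ± 0.61 (edgeR quasi-likelihood, adjusted p = 0.9996 for each). Of 552 microRNAs none was called lower or higher (0% lower), 9 had an unadjusted p below 0.05, and DESeq2 called 0 with 8 below 0.05. Both KO libraries carry letter H, as does 1 of the 6 WT libraries, and with the letter as a covariate the signs turned (0.60 and 0.62). That adjustment rests on 1 WT library of letter H.

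**Figure D3:**
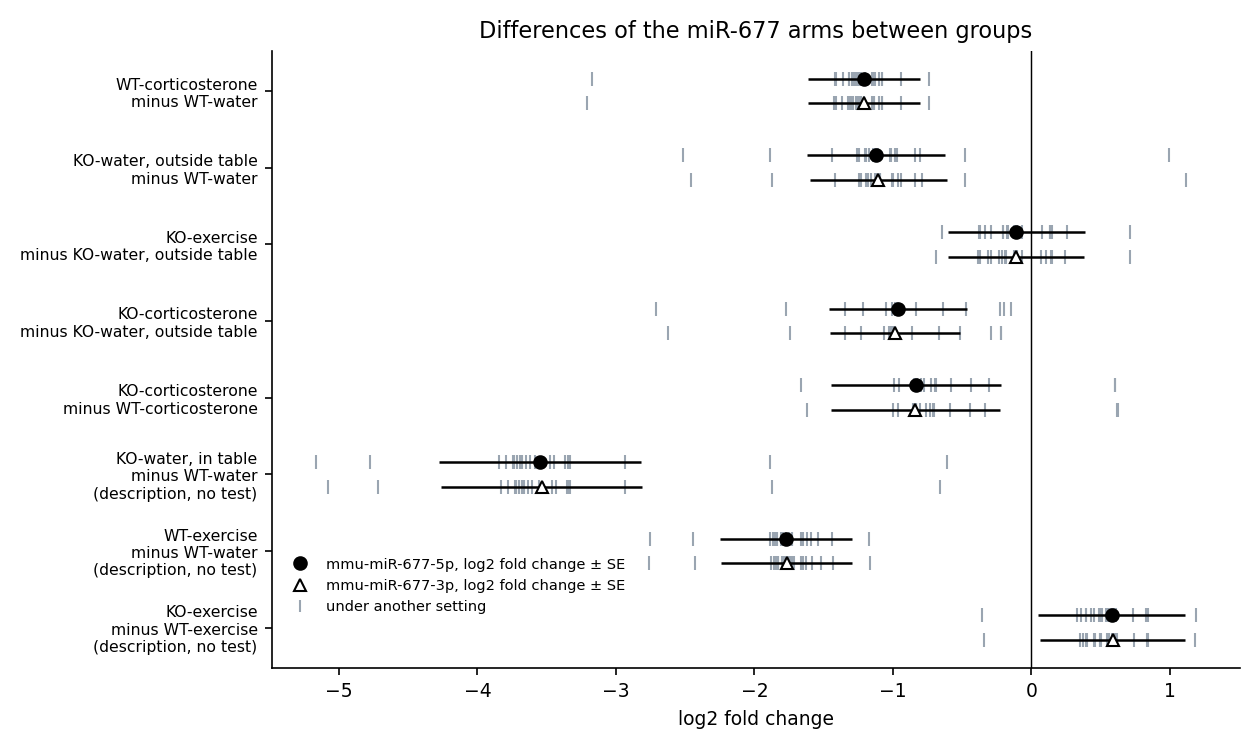
Log2 fold changes of mmu-miR-677-5p (filled circles) and mmu-miR-677-3p (open triangles) with 1 SE in 8 contrasts; grey ticks are the values under the other settings tried, including each library left out. Both corticosterone values in wild type keep their sign in all settings shown, while those of KO-exercise against untabled KO-water lie on either side of 0.

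The balance of the arms did not change detectably. The difference between groups in mean log2 (5p/3p), with 0.5 added to counts, was 0.0009 for corticosterone in wild type, -0.022 for untabled KO-water against WT-water, 0.011 and 0.014 for exercise and corticosterone in knockout, and -0.009 for KO-corticosterone against WT-corticosterone. Without KO-water replicate 5 the second value was -0.0027. Two-sided exact permutation p-values of these 5 tests were 0.929, 0.10, 0.679, 0.70 and 0.821, and adjusted values lay between 0.5 and 0.929. The 10 possible splits of KO-corticosterone and untabled KO-water allow no p below 0.1. With arms this close in count, the ratio carries little information of its own.

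Library depth moved with the level within wild-type mice on water. WT-water replicate 4, the deepest library (4052174 counts), had 351 counts of the 5p arm, while replicate 6, the shallowest of the group (1639753 counts), had 686. Over the 7 libraries the mean log2 CPM of the arms fell with log2 total counts (Pearson r = -0.982, exact permutation p = 0.000397, adjusted 0.00238 over 6 relations; Spearman rho = -0.964, p = 0.00278, adjusted 0.00834). Without the 2 libraries farthest from the median depth r was -0.939. CPM is itself scaled by total counts, and these WT-water libraries were used by the choice. Other microRNAs are not set beside this relation here, so it is not read as particular to miR-677. In the 6 WT-corticosterone libraries r was -0.581 (exact permutation p = 0.207, adjusted 0.29) and rho -0.657 (p = 0.175, adjusted 0.35), and without the 2 farthest -0.409. The 6 KO-water libraries form 2 sets, so no pooled r is given; within the tabled set the shallowest library was the lowest, and within the untabled set the deepest was the lowest. Median depth was 2867803 counts in WT-water and 1777523 in WT-corticosterone. The part of depth in the levels was not tested.

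**Figure D4:**
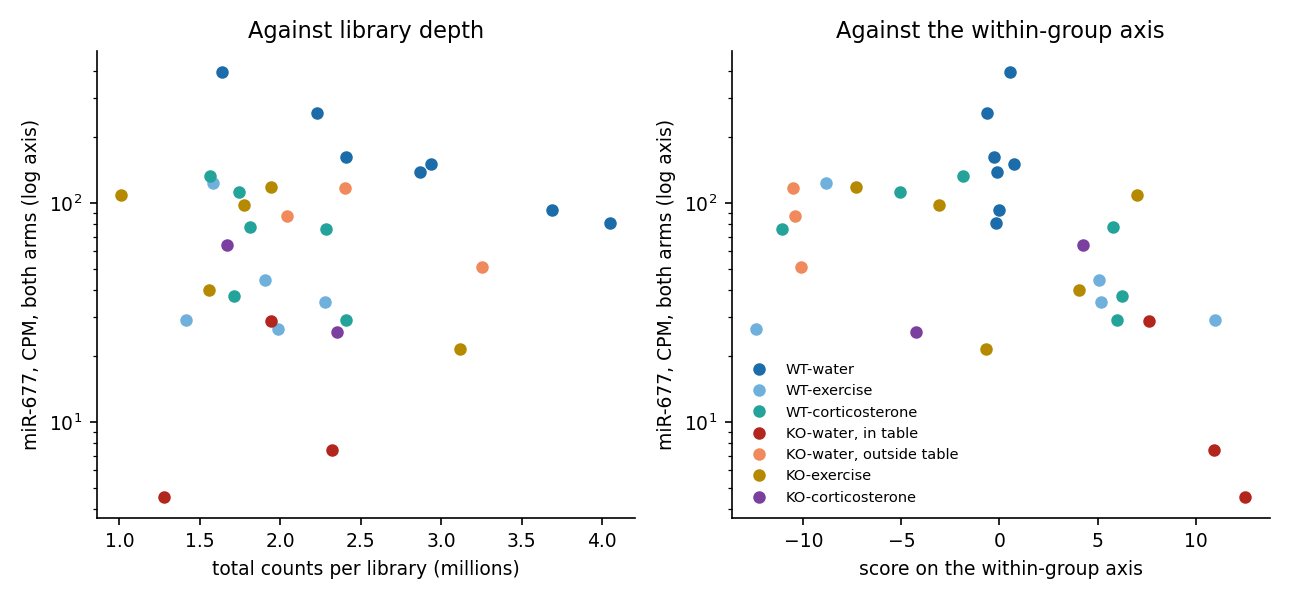
CPM of miR-677 (log axis, geometric mean of both arms) in each library against total counts (left) and against the score on the first principal component of within-group variation (right), coloured by group. On the left the WT-water libraries descend from 395 CPM at the lowest depth to 81.2 CPM at the highest. On the right the tabled KO-water libraries stand low at positive scores and the untabled ones at negative scores. WT-exercise libraries also lie near both ends.

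Among 462 microRNAs with a mean of at least 10 CPM, those most like the mean of the arms over 31 libraries (Pearson r of log2 CPM) were miR-7b-3p (0.920), miR-3535 (0.874), miR-143-5p (0.866), miR-770-5p (0.847) and miR-7068-5p (0.811). The median r over the 462 was 0.0475, and 23 exceeded 0.7. These points share libraries, depth and groups, and the correlations are descriptions. Without the 3 tabled KO-water libraries the values were 0.921, 0.794, 0.762, 0.749 and 0.745, and 3 of the 5 were still among the highest 5. miR-7b-3p is the arm opposite miR-7b-5p, a member of the miR-7 family. Its level was 217 ± 82.6 CPM (SD, n = 7) in WT-water and 119 ± 33.2 CPM (SD, n = 6) in WT-corticosterone, a fall of 0.83 ± 0.25 on the log2 scale (edgeR quasi-likelihood, adjusted p = 0.0154). miR-770-5p, from the imprinted Dlk1-Dio3 region, fell by 0.79 ± 0.19 in the same contrast (adjusted p = 0.00441). The values of miR-143-5p (-0.62 ± 0.36, adjusted p = 0.183), miR-3535 (-0.17 ± 0.36, 0.739) and miR-7068-5p (-0.02 ± 0.37, 0.960) did not pass that test. Thus 2 of the 5 most alike were called with the arms in that contrast and 3 were not, beside 93 of 547 microRNAs called lower. The 5 were picked by likeness over libraries that include those of this contrast. Their p-values and this count are therefore descriptions too.

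**Figure D5:**
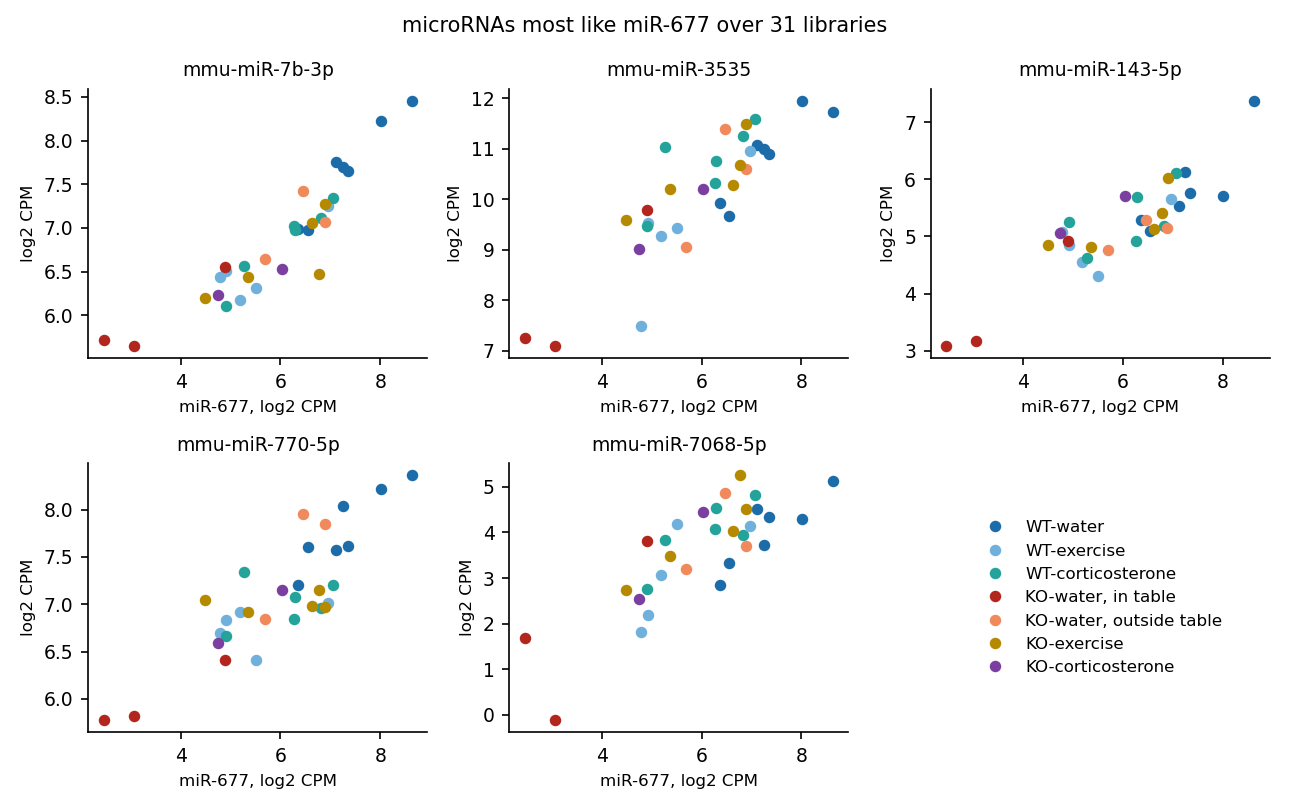
Log2 CPM of the 5 microRNAs most like miR-677 (vertical axes) against the mean log2 CPM of the miR-677 arms (horizontal axes), 1 point per library (31) and coloured by group. The points rise together in each panel, most tightly for mmu-miR-7b-3p (r = 0.920), and 2 tabled KO-water libraries lie at the lower left of all 5 panels.

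The lowest correlations belonged to miR-532-5p (-0.763), miR-151-3p (-0.762), miR-195a-5p (-0.755), miR-126a-3p (-0.754), an endothelial microRNA, and miR-218-5p (-0.751), a neuronal microRNA of the Slit genes. Without the tabled KO-water libraries they ranged from -0.706 to -0.567, and none of the 5 was then among the lowest 5. In WT-corticosterone miR-218-5p rose by 1.26 ± 0.17 on the log2 scale (edgeR quasi-likelihood, adjusted p = 5.32e-05) and miR-126a-3p by 0.56 ± 0.16 (adjusted p = 0.0115). Both were picked by their correlation over libraries that include these, so their p-values are descriptions. Neighbours on the chromosome were too scarce to compare: miR-546, 1086725 bases upstream, had 4 counts in all libraries together, and miR-6914-5p and miR-6914-3p, 297474 bases downstream, had 4 and 30. No other microRNA gene of the table lies in Atp5b.

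The other microRNAs whose hairpins overlap a snoRNA or a small Cajal body RNA, are a list drawn up after values were seen. Of 20 listed, 18 were tested in WT-corticosterone against WT-water: 0 rose and 2 fell, beside 136 and 93 of all 547, with a median log2 fold change of 0.01 beside 0.06 over all. The 2 were miR-3084-3p (-2.13 ± 0.27, adjusted p = 4.43e-05) and miR-3084-5p (-0.72 ± 0.26, adjusted p = 0.0338). miR-3084-3p also fell in KO-exercise against untabled KO-water (-1.44 ± 0.41, adjusted p = 0.0285), the 1 member of the list called there, beside 57 of 544 microRNAs called higher and 61 lower. The list's medians were -0.28 in untabled KO-water against WT-water (-0.04 over all), -0.03 in KO-exercise (0.02) and -0.22 in KO-corticosterone (-0.01) against untabled KO-water, -0.13 in KO-corticosterone against WT-corticosterone (-0.04) and -0.31 in WT-exercise against WT-water (0.04). Negative values were 14, 11, 12, 14 and 12 of 18 in that order, beside 55.7%, 48.5%, 50.3%, 59.2% and 48.1% over all microRNAs. In WT-corticosterone against WT-water 9 of 18 were negative (47.7% over all), and in tabled KO-water against WT-water 10 of 18 (48.2%). KO-exercise against WT-exercise had 7 of 18 (56.5%), with a median of 0.06. These medians carry no test, and the contrasts share control libraries. For the 16 list members with an r with the arms, values ran from -0.341 (miR-3068-3p) to 0.874 (miR-3535, which overlaps the snoRNA Gm24148). miR-3084-3p had 0.764, and miR-5121, which overlaps Snord33, had 0.735. miR-3535, miR-3084-3p and miR-5121 were the list members among the 23 above 0.7. Also negative were miR-1843a-3p (-0.242), miR-1839-5p (-0.131) and miR-1843b-3p (-0.128). All other list members with an r were positive, beside a median r of 0.0475 over all 462 microRNAs. These values carry no test, and the list is not read as following the arms.

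A list of 14 mature microRNAs from hairpins made by noncanonical routes (introns spliced out as hairpins, capped 5′ ends, or snoRNA-like precursors) gave 12 tested. In WT-corticosterone 3 of 12 rose and none fell, beside 136 of 547 microRNAs called higher, with a median of 0.16. The risers were miR-702-3p (0.90 ± 0.19, adjusted p = 0.00204), miR-3102-3p (0.65 ± 0.21, adjusted p = 0.0196) and miR-1224-5p (0.84 ± 0.27, adjusted p = 0.0201). This count is near the share over all microRNAs, and nothing is read from it about the list. In KO-exercise against untabled KO-water 1 of 12, miR-702-3p, was called (0.90 ± 0.25, adjusted p = 0.0247), beside 57 of 544 called higher. The most abundant members, miR-484 (0.13 ± 0.14, adjusted p = 0.452) and miR-664-3p (0.07 ± 0.14, adjusted p = 0.694), did not pass the test under corticosterone in wild type.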

How the data were processed

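Counts were taken as the authors deposited them, as unnormalized whole numbers of reads per mature microRNA in 5 tables that each pair 2 groups; libraries repeated between tables (24 columns) had identical counts. The tools named in the submitters' processing notes are BWA, cutadapt 2.3, featureCounts, Subread and limma 3.54.1, on GRCm38 (mm10), in no stated order or role. Strand use in counting, and whether a read over 2 features counted for each, are not given in the sources used here. Per the labels' protocols, libraries were made with the Ion Total RNA-Seq Kit and sequenced on an Ion Torrent S5. Columns were matched to samples by the sample code; 0 other columns of samples were present. Of 1966 microRNAs, 391 had no count.

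The miR-677 arms and all lists were chosen with earlier results of these data known. Besides the arms, the text names the 5 microRNAs with the highest and the 5 with the lowest correlation, and neighbours in the genome. It also names called or most abundant members of the noncanonical list. Chosen after values were seen were snoRNA-overlapping microRNAs and hairpins with near-equal arms. Each contrast was fitted over all microRNAs with edgeR 4.0.16 in R 4.3.3 (filterByExpr, TMM, estimateDisp, robust glmQLFit, quasi-likelihood F test, 2-sided), with Benjamini-Hochberg adjustment over all microRNAs tested and calls at 0.05. SE values derive from F. CPM uses TMM factors over 31 libraries; log2 CPM uses a prior count of 2. Alternatives were DESeq2 1.42.0, limma 3.58.1 (voom), other scalings and filters, a joint fit, covariates (code letter, within-group component), libraries left out, and, added after seeing the data, each code letter alone and likeness without tabled KO-water. The scripts were tested on simulated data. The labels call the libraries biological replicates; nothing says more of the animals, so p-values measure the spread between these samples. The least different pair of libraries in a group had a chi-square of 16.1 per degree of freedom, so none was counted as a duplicate.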

Additional observations from a re-analysis of the deposited data

Results flagged for a closer look

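WT-exercise replicate 1 stood apart from the other 4 libraries of its group, with 124 CPM of mmu-miR-677-5p and 123.4 CPM of mmu-miR-677-3p against a highest of 44.7 and 44.2 CPM among the others. It was marked because its gap to the next library was large for the range of the group. As the arms are nearly the same count, this is 1 observation rather than 2. Of 10 checks of this kind (2 arms in each of 5 groups with at least 4 libraries), chance alone marks about 1 in 20. On the within-group component it scored -8.82, beside -12.4 for replicate 2 and 5.06 to 11.0 for the others. In log2 CPM against the mean of their own water libraries, wild-type mice were lower in 5 of 5 libraries after exercise and in 6 of 6 after corticosterone. Exercise against WT-water was a contrast that chose the arms, and corticosterone is set against the same WT-water libraries. Nothing is therefore read from these counts. Against all 6 KO-water libraries 1 of 5 KO-exercise and 1 of 2 KO-corticosterone libraries were lower; against the untabled 3, 2 of 5 and 2 of 2 were. The difference between genotypes was not tested.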

How the results depend on the processing

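Values are log2 fold changes, 5p arm then 3p arm, edgeR unless named. WT-corticosterone against WT-water kept its sign in all 25 alternatives (-3.18 to -0.74 for the 5p arm) and its call in 17; the call was lost with no filter on low counts (-1.235 and -1.237), code letter as covariate (-1.080 and -1.081), letter G only (-0.7395 and -0.7367) and the replicate block (-1.139 and -1.137), and in 4 of 13 fits with 1 library left out (-1.415 to -0.9382 and -1.422 to -0.9387). Nothing in the labels says whether equal replicate numbers pair libraries. Of 6 same-numbered pairs there 1 correlated above 0.1, and of 5 in WT-exercise against WT-water 2 did, which cannot decide it. The block also gave KO-corticosterone against untabled KO-water a call (-1.348 and -1.344, adjusted p = 0.00948), as did no filter (-1.006 and -1.027); it moved calls from 118 to 38 in KO-exercise against untabled KO-water, 40 to 83 in KO-corticosterone and 180 to 38 in WT-exercise.

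With the within-group component as covariate, untabled KO-water turned to 0.9924 and 1.119, KO-exercise against untabled KO-water to 0.1342 and 0.1083, and tabled KO-water moved to -0.6076 and -0.6622; the component and the KO-water sets nearly coincide. With all 6 KO-water libraries, KO-water against WT-water was -1.886 and -1.872 and KO-exercise against KO-water 0.7161 and 0.7149. Among letter H libraries the values were -2.515 and -2.459 (untabled KO-water), -5.164 and -5.081 (tabled), -2.756 and -2.758 (WT-exercise), -0.3560 and -0.3430 (KO-exercise against WT-exercise) and 0.6042 and 0.6229 (KO-corticosterone against WT-corticosterone; 0.6011 and 0.6200 with the letter as covariate). Among letter G, KO-exercise against untabled KO-water was 0.1337 and 0.1434. The causes were not tested. With 1 library left out, that contrast ran from -0.3791 to 0.2565 and -0.3687 to 0.2438, and tabled KO-water from -4.776 to -3.333 and -4.719 to -3.331. The arm ratio ran from -0.004153 to 0.009097 (WT-corticosterone), -0.009026 to 0.02128 (KO-exercise), -0.02293 to 0.0516 (KO-corticosterone against KO-water), -0.0461 to 0.02843 (against WT-corticosterone) and -0.03296 to -0.00265 (untabled KO-water, -0.00265 without KO-water replicate 5). A group left with 1 library is assumed to vary like the other.

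Counts of called microRNAs ran from 127 to 292 in WT-corticosterone (main 229), 0 to 5 in untabled KO-water (0), 5 to 184 in KO-exercise against untabled KO-water (118), 0 to 83 in KO-corticosterone against untabled KO-water (40; DESeq2 81), 0 to 381 in tabled KO-water (354) and 10 to 279 in WT-exercise (180). Without scaling factors the median of all microRNAs in tabled KO-water moved from 0.03 to -0.30, with -3.84 for the 5p arm. Depth limits the lowest values: tabled KO-water libraries held 6 to 53 counts of the 5p arm.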
